A study of Drosophila melanogaster with 3 samples.

Results

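Below the reproducible list of forkhead binding sites in Drosophila melanogaster prepupae lay a second tier of weaker regions. They were chosen by the authors' peak calls, and so on signal and on presence in lists, as pooled regions that shared no base with any peak of the authors' reproducible list and at least 1 bp with a region in each of the 3 replicate lists. There were 9082 such weaker regions among the 30000 regions of the pooled list. Another 12425 pooled regions shared a base with the reproducible list, which holds 9531 peaks, and 17575 lay outside it. Of the 17575, the weaker regions were 51.7%, and the other 8493, missing from at least 1 replicate list, served as a second comparison set, called here the other outside regions. Binding was mapped by chromatin immunoprecipitation and sequencing (ChIP-seq) in whole animals of a transgenic line. The samples' description names an anti-GFP antibody while their antibody label names fkh, and their stage is labelled prepupa while their age is labelled 24 days, longer than a fly usually takes to reach that stage. The description's antibody and the stage label are followed here. The line expresses fkh fused at its C terminus to GFP, through an insertion that targets fkh, and each of the 3 biological replicates pooled males and females. All 3 samples form 1 group with this 1 genotype and no treatment, so every comparison is between sets of regions and none is between groups of animals. Because whole animals were used, a site bound strongly in a small tissue and a site bound weakly in many tissues cannot be told apart.

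Forkhead, the fly's FoxA protein, founded the Fox family of transcription factors, which bind DNA through a winged helix domain. In the fly it is known for its part in forming the salivary glands and the gut, for keeping salivary gland genes active in the larva, and for its loss from the glands as the steroid hormone ecdysone drives their death. Fox proteins bind a short T-rich word. The form searched here reads T, then A or G, then TTT, then A or G, then C or T, on either strand, and is called the forkhead word. A stricter form, TGTTTAC, was counted separately and is contained in the first.

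The windows at the top of the weaker tier show what the regions look like at the sequence level, since each lies just under the cut of the reproducible list. They come from the 200 strongest weaker regions and show promoters, introns and intergenic places with and without the forkhead word. The intergenic regions near mirr and ths, stronger than the one near Fie, are not shown. Each is the plus strand of the release 6 (dm6) assembly, 50 bases to either side of the summit, and capitals mark matches to the forkhead word on either strand.
Ugt36A1 promoter, chr2L:3619100-3619200: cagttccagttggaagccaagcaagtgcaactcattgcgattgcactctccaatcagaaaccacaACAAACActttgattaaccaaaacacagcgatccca
CG4036 promoter, chr2L:9790834-9790934: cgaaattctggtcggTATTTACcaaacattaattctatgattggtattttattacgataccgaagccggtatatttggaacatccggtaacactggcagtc
CG11555 promoter, no word, chr2L:273806-273906: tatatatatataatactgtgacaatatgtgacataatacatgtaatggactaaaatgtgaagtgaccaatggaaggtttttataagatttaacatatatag
lncRNA:CR46454 intron, chr2L:11453084-11453184: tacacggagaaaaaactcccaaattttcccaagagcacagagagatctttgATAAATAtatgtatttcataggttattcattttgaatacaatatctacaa
CG43759 intron, chrX:18973343-18973443: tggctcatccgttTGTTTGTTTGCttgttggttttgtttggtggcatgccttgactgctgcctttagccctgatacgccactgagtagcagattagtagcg
mtd intron, no word, chr3R:5315328-5315428: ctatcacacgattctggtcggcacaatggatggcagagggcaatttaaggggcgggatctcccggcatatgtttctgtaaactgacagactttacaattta
Intergenic, nearest coding gene CG15172, chr2L:19018373-19018473: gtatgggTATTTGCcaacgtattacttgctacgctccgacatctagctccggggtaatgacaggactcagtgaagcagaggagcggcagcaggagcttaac
Intergenic, nearest coding gene Fie, chr3L:3879024-3879124: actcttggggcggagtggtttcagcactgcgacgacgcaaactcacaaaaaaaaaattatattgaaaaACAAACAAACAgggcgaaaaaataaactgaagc
Intergenic, nearest coding gene E(spl)malpha-BFM, no word, chr3R:26009109-26009209: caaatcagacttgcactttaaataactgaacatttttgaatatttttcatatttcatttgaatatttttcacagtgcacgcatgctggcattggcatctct

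The words in these windows did not sit at one place. In the Ugt36A1 window the word is centred 18 bp above the summit, and in the CG4036 window 32 bp below it. The windows at CG43759 and near Fie each hold 2 overlapping matches, in T-rich and A-rich runs, while the CG11555 window, with 24.8% GC, holds none.

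The values that chose the regions are given as a description. The signal column that the authors deposited, a score in unnamed units, ran from 27.3 to 159.97 in the weaker regions with a median of 83.6, and from 159.9997 to 6080.8 in the reproducible peaks with a median of 294.1. It had a median of 43.7 in the other outside regions. Just inside the weaker set stood a region 53 bp from the start site (TSS) of Ugt36A1, which encodes a UDP-glycosyltransferase, at 159.97, and regions in an intron of mtd and near E(spl)malpha-BFM, both at 159.86. Just outside it stood reproducible peaks in an intron of Eip78C, an ecdysone-induced nuclear receptor, at 159.9997, at the ribosomal protein gene RpS6 at 160.07 and at CG17233 at 160.10. The reproducible list was thus the strongest part of the pooled list by signal, and the weaker regions began at pooled rank 9532. The deposited −log10 of the q-value ran from 0.298 to 4.289 in the weaker regions with a median of 1.64, and 152 of them (1.67%) reached the highest value, at which every reproducible peak stood. It passed 2 in 3617 weaker regions (39.8%) and in 474 of the other outside regions (5.58%).

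In the single replicates the weaker regions stood in the middle of each list of 30000. Their median ranks were 15677.5, 15722.5 and 16417 in replicates 1, 2 and 3. A rank in a replicate is that of the strongest replicate region sharing at least 1 bp, which can belong to a neighbouring summit. In all 3 lists, 3827 weaker regions (42.1%) shared their replicate regions with another weaker region, so these ranks are not always a region's own. Against the 9531 strongest regions of each replicate, as many as the reproducible list holds, 637 weaker regions (7.01%) were among them in replicate 1, 957 (10.5%) in replicate 2 and 952 (10.5%) in replicate 3. They were not the same regions each time. In all, 6931 (76.3%) were among the strongest in no replicate, 1793 in 1, 321 in 2 and 37 in all 3. Because the rule takes only regions outside the reproducible list, these counts and the correlations that follow do not measure how well the replicates agree. Across the 9082 regions, ranks in replicates 1 and 2 had a Spearman's rho of 0.259, those in 1 and 3 of 0.333 and those in 2 and 3 of 0.252, a description of regions that share the 3 libraries and 1 control.

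Weaker regions lay less often at promoters than reproducible peaks did. A summit within 500 bp of a TSS counted as a promoter, and 2052 of 9082 weaker regions (22.6%, 95% exact binomial interval 21.7 to 23.5) and 4231 of 9531 reproducible peaks (44.4%) met this. The odds ratio was 0.366 (two-sided Fisher's exact test with Benjamini-Hochberg adjustment over 7 classes, adjusted exact p = 1.72e-219). The rule leaves out every pooled region that touches a reproducible peak, also those of low signal, and 44.4% of these peaks lie at promoters. How much of the promoter difference comes from the rule was not tested. Introns held 4757 weaker regions (52.4%) and 40.2% of the reproducible peaks (adjusted exact p = 2.77e-62), and the space between genes held 1745 (19.2%) and 11.6% (adjusted exact p = 2.67e-47). Coding sequence held 82 weaker regions (0.903%) and 0.409% of the reproducible peaks (adjusted exact p = 4.63e-05), and 3' UTRs held 233 (2.57%) and 1.41% (adjusted exact p = 2.34e-08). Both of these classes missed the threshold when only the weakest quintile of the reproducible peaks was compared. The shares in 5' UTRs, 1.29% and 1.23%, and in other exons, 1.06% and 0.839%, did not pass the test (adjusted exact p = 0.742 and 0.152). All intervals and tests here are over regions, which share libraries and can lie side by side, so they cover counting error only and are too narrow as a measure of biological spread.

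Set against the other outside regions, the same weaker regions were more often at promoters. The share was 22.6% in weaker regions and 15.9% in the other outside regions (odds ratio 1.55, adjusted exact p = 9.58e-29). Intergenic summits were fewer, 19.2% and 24.2% (adjusted exact p = 4.34e-15), as were those in coding sequence, 0.903% and 1.78% (adjusted exact p = 9.95e-07), and in 3' UTRs, 2.57% and 3.34% (adjusted exact p = 0.00415). The intron shares, 52.4% and 52.7%, did not differ beyond counting error (adjusted exact p = 0.716). The median distance to the nearest TSS was 1972 bp in weaker regions, against 2713 bp in the other outside regions and 727 bp in reproducible peaks.

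**Figure D1:**
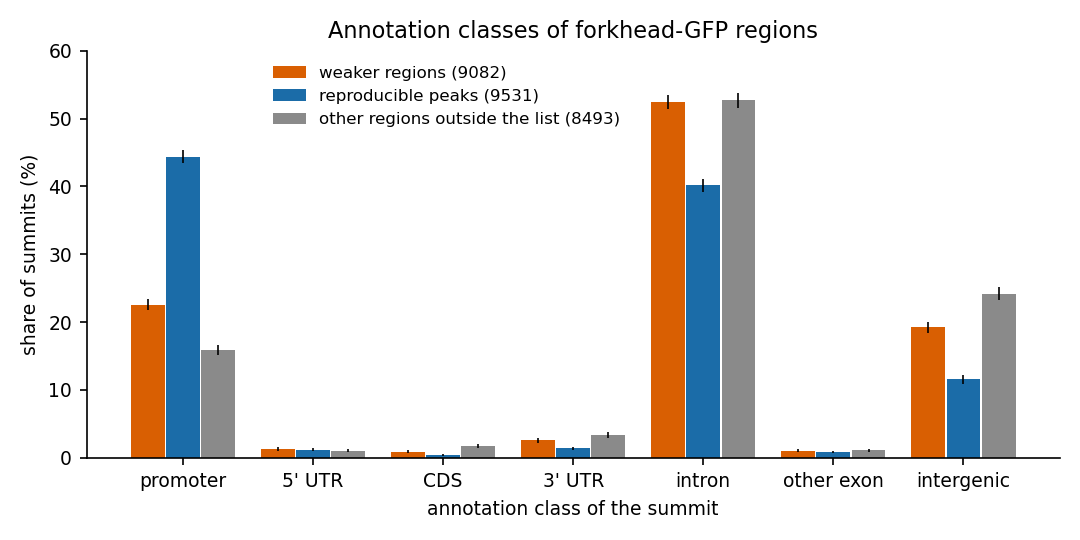
Share of summits in each annotation class (percent, y axis) for the weaker regions, the reproducible peaks and the other outside regions, with 95% exact binomial intervals. Promoters hold 22.6% of the weaker regions, between 44.4% of the reproducible peaks and 15.9% of the other outside regions, and the intron bar is taller in both outside sets than in the reproducible peaks.

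The kind of gene at the promoters is given without a test. Among weaker regions at promoters the nearest TSS belonged to a protein-coding gene in 85.4%, against 91.7% of reproducible promoters and 77.4% of promoters among the other outside regions. It belonged to a non-coding RNA gene in 262 of 2052 (12.8%), against 7.11% and 16.8%, and to a tRNA gene in 23 (1.12%), against 0.874% and 3.71%, in the same order of sets. By chromosome, the X held 18.7% of the weaker regions and 15.6% of the reproducible peaks (odds ratio 1.25, Fisher's exact test adjusted over 6 chromosome arms, adjusted exact p = 7.63e-08). Arms 2R, with 17.8% and 19.6%, and 3R, with 22.0% and 23.9%, held smaller shares of the weaker regions (Fisher's exact test, adjusted p = 0.00408 for each). No arm passed the test between the weaker regions and the other outside regions. The base composition was alike, with a GC content of 41.7% ± 8.70 (SD, n = 9082 summit windows) in weaker regions and 41.5% ± 8.49 (n = 9531) in reproducible peaks. Windows at least 50% soft-masked as repeats made up 6.96% of the weaker regions and 6.55% of the reproducible peaks (Fisher's exact p = 0.267).

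The forkhead word was enriched at the summits of the weaker regions. Within 50 bp of the summit 4035 of 9082 (44.4%, 95% interval 43.4 to 45.5) held it, and the same regions held it in 24.7% of windows 500 bp away, a ratio of 1.80 (two-sided exact McNemar test adjusted over 18 words, adjusted exact p = 2.36e-172). Of the reproducible peaks 58.5% held it (odds ratio 0.566, adjusted exact p = 1.83e-81), with 25.01% in their own flanks. Over all 30000 pooled regions the share was 46.2%, with 24.3% in flanks. The strict form TGTTTAC stood in 6.01% of weaker summits and 1.79% of their flanks, a ratio of 3.35 (adjusted exact p = 1.46e-51), and in 11.99% of reproducible summits. Weaker regions also held fewer words per window. None was found in 55.6% of weaker regions and 41.5% of reproducible peaks, and 3 or more in 3.92% and 7.15%. A match is a run of letters and does not show that the protein sat on it.

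The share with the word was higher where the signal was higher, in both sets. From the weakest to the strongest quintile of the weaker regions it was 33.0%, 40.8%, 45.0%, 50% (908 of 1816 regions) and 53.4%. From the weakest to the strongest quintile of the reproducible peaks it was 51.5%, 53.1%, 56.1%, 62.2% and 69.8%. Within the weaker regions the odds of holding it were 2.33 times as high in the strongest as in the weakest quintile (two-sided Fisher's exact test, p = 1.61e-35). Across the cut, the strongest weaker quintile, at 53.4%, and the weakest reproducible quintile, at 51.5%, were not told apart (odds ratio 1.08, exact p = 0.251). The promoter share was not tested across the cut. The strongest weaker quintile lay at promoters in 29.4% and the weakest reproducible quintile in 35.9%, and within the weaker regions the promoter share was 29.4% in the strongest and 19.8% in the weakest quintile (Fisher's exact p = 2.40e-11).

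**Figure D2:**
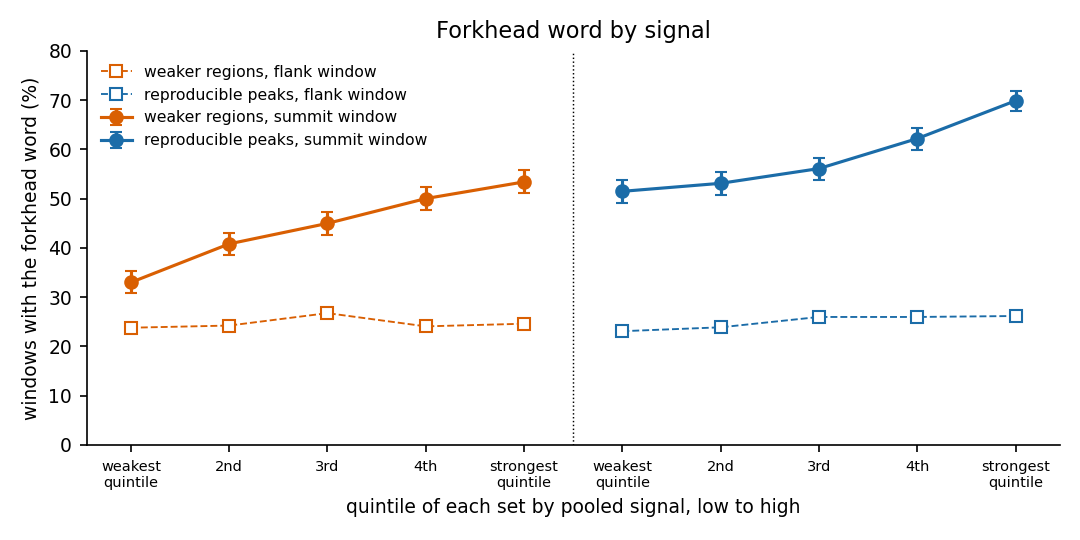
Share of windows with the forkhead word (percent, y axis) in quintiles of pooled signal, low to high, for the weaker regions and the reproducible peaks, with 95% exact binomial intervals. Filled circles are windows of 50 bp to either side of the summit and open squares are windows 500 bp away. The summit shares climb from 33.0% to 53.4% in the weaker regions and from 51.5% to 69.8% in the reproducible peaks, while the flanks stay near 25%.

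By class, weaker regions at promoters held the word least often among the large classes. The share was 37.1% at weaker promoters and 46.6% over all other weaker regions (Fisher's exact p = 3.33e-14). In introns 46.9% of weaker regions and 64.8% of reproducible peaks held it, between genes 45.3% and 62.5%, and at promoters 37.1% and 51.4%. Each of these differences passed (p adjusted over 7 classes of 1.01e-61, 7.89e-19 and 6.35e-26). Weaker regions in 3' UTRs stood highest, with 58.8% against 70.9% of reproducible peaks in 3' UTRs (adjusted exact p = 0.0285), and those in coding sequence lowest, with 25.6% against 59.0% (adjusted exact p = 0.000954), on only 82 and 39 regions.

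Presence in all 3 replicate lists went with the word, and so did signal. Of the weaker regions 44.4% held it and of the other outside regions 38.8% (odds ratio 1.26, adjusted exact p = 6.27e-13). By the number of replicate lists that held a region, 3, 2, 1 or 0, the shares were 44.4%, 40.2%, 36.5% and 36.1%. The median signals of these sets were 83.6, 50.9, 37.0 and 31.4. Within bands of pooled signal, the weaker regions and the other outside regions held the word in 33.7% and 33.7% at 27 to 40, 35.2% and 40.2% at 40 to 60, 41.9% and 44.3% at 60 to 80, 47.7% and 44.9% at 80 to 100, 50.6% and 49.3% at 100 to 130 and 53.3% and 52.1% at 130 to 160. One band, 40 to 60, differed, and there the weaker regions were lower (adjusted exact p = 0.00623 over 6 bands). These bands were chosen after seeing the data.

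**Figure D3:**
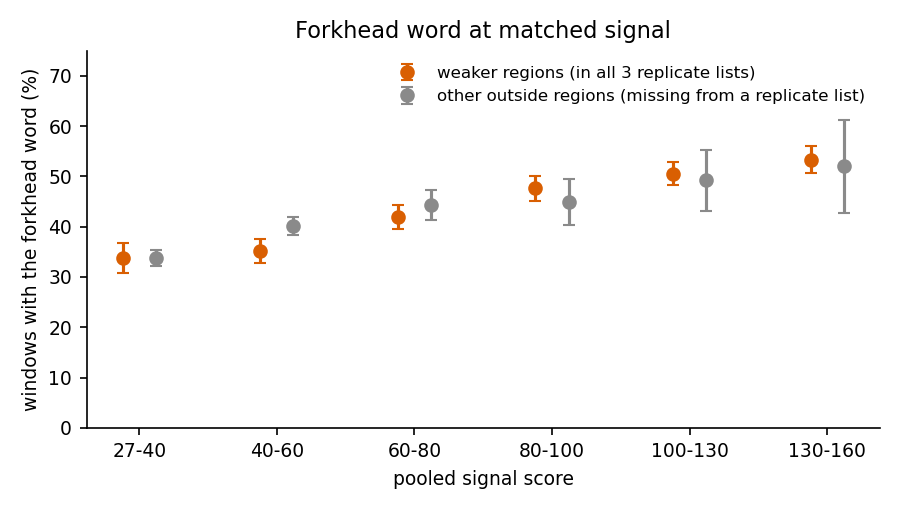
Share of windows with the forkhead word (percent, y axis) in bands of pooled signal for the weaker regions, found in all 3 replicate lists, and the other outside regions, with 95% exact binomial intervals. The 2 sets climb together, from 33.7% and 33.7% in the lowest band to 53.3% and 52.1% in the highest.

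Many weaker summits had a close neighbour, and these close pairs had an orientation. The nearest other pooled summit lay within 300 bp of 4343 weaker summits (47.8%), and at least 200 but under 250 bp away from 3152 (34.7%). A stronger pooled summit lay within 300 bp of 2233 weaker regions (24.6%), called second summits here. In 2062 of these 2233 (92.3%) the nearest stronger summit was at the lower chromosome coordinate. The same held in reproducible peaks, where 1299 (13.6%) were second summits and 96.2% of them had the stronger one at the lower coordinate, and in each replicate list, where the share was 93.7%, 92.4% and 91.7% in replicates 1, 2 and 3. In the other outside regions 10.8% were second summits, 83.6% of them with the stronger one at the lower coordinate. Coordinates run along the chromosome regardless of gene strand. These splits were chosen after seeing the data, and how the caller places summits is not given in the sources used here.

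Second summits held the word less often than lone ones. It stood within 50 bp of 34.3% of second summits and of 49.2% of the 3994 weaker regions with no other pooled summit within 460 bp (odds ratio 0.541, Fisher's exact test adjusted over 6 tests, adjusted exact p = 1.22e-29). The first summits of such pairs, 2110 weaker regions whose neighbours within 300 bp were all weaker, held it in 46.5%. At second summits the word was found in 45.8% of windows 230 bp toward the stronger summit and in 23.4% of windows 230 bp away from it (exact McNemar test, adjusted exact p = 8.74e-57). The first of these windows lies on or beside the stronger summit, so the test largely repeats the contrast of summit and flank. Second summits were also weak, with a median signal of 50.2 against 95.5 in the regions with no close neighbour. They made up 63.4% of the weakest quintile of the weaker regions and 3.08% of the strongest. Within quintiles of signal, from the strongest down, second summits held the word in 42.9%, 36.9%, 41.3%, 34.5% and 31.9%. All remaining weaker regions held it in 53.7%, 51.1%, 45.6%, 44.0% and 34.8%. The differences within quintiles were not tested. Without second summits in any set, 6849 weaker regions remained, the word ratio to flanks was 1.97, that to reproducible peaks 0.784 and that to the other outside regions 1.20, and all 3 tests stayed past the threshold. The quintile gradient shrank to a ratio of 1.36, against 1.62 with all regions (Fisher's exact p = 7.29e-14). In the band of signal 40 to 60 the shares were then 38.1% and 40.5% and did not differ (adjusted exact p = 0.740).

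**Figure D4:**
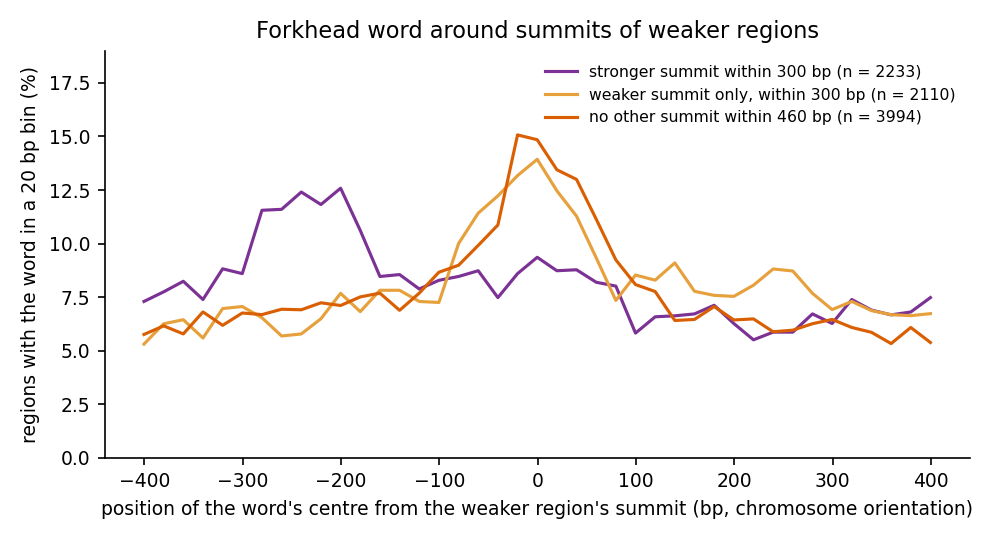
Share of weaker regions with the centre of a forkhead word in each 20 bp bin (percent, y axis) by position from the summit in chromosome orientation (bp, x axis), for second summits, first summits of close pairs and summits with no other within 460 bp. The lone summits have 14.8% in the bin at the summit and reach 15.1% in the next lower bin. Second summits have 9.36% at the summit and reach 12.6% about 200 bp lower on the chromosome.

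The replicates' own summits also lay lower more often than higher. The strongest overlapping replicate region had its summit within 50 bp of the pooled one in 51.6%, 43.9% and 40.2% of weaker regions in replicates 1, 2 and 3. It lay 180 to 280 bp lower in 15.3%, 14.4% and 13.6%, and 180 to 280 bp higher in 2.86%, 4.06% and 4.91%. Where it lay lower, the word stood at the replicate's summit in 46.1%, 45.4% and 44.1% and at the pooled summit in 34.4%, 35.7% and 37.3%. Where it lay higher, the shares were 36.5%, 40.9% and 38.1% at the replicate's summit and 36.2%, 43.9% and 46.2% at the pooled one. Neither contrast was tested. In 1292 weaker regions (14.2%) all 3 replicate summits were within 50 bp of the pooled one, and 57.5% of these held the word, against 42.3% of the rest (Fisher's exact p = 2.57e-24). Their median signals were 117.5 and 77.2. Within quintiles of signal, from the strongest down, the shares were 60.3% and 50.3%, 57.4% and 47.8%, 51.3% and 44.0%, and 57.1% and 40.1%, with p adjusted over 5 quintiles of 0.000362, 0.00189, 0.0531 and 0.00695 in that order (Fisher's exact test). The weakest quintile had only 4 such regions.

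Among the 37 weaker regions that were strong in every replicate, 15 had at least 1 replicate region that also touched a reproducible peak. Another 7 were second summits, and 15 were neither. The genes here were picked after their values were seen. The region 165 bp from a TSS of Blos4, a subunit of the BLOC-1 complex of endosomal sorting, ranked 1772, 918 and 996 in replicates 1, 2 and 3 and 11745 in the pooled list. Its replicate summits minus the pooled one gave -198, -197 and -172 bp. The region 87 bp from CG5515 ranked 4411, 3504 and 3375 in the replicates and 26346 in the pooled list, and the same differences were -216, -167 and -188 bp. In 8 of the 15 every replicate summit lay at least 100 bp lower than the pooled summit, and in 0 of the 15 did every one lie at least 100 bp higher. Over all weaker regions, 168 (1.85%) rested in at least 1 replicate on a region that also touched a reproducible peak, and leaving such replicate regions out kept 8914.

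Some other words also differed from their flanks, and not all by a smaller ratio than the forkhead word's 1.80. Besides both forkhead forms, 5 of the other 16 words stood more often at weaker summits than in their flanks. The CA repeat CACACACA was found in 4.79% of summits and 2.42% of flanks, a ratio of 1.98 (adjusted exact p = 5.26e-17). GAGAGAG, the word of GAGA factor, stood in 2.39% and 1.56% (adjusted exact p = 0.000253). The promoter words TATCGATA, of the DRE, and GGTCACAC, bound by M1BP, were rare, with 0.495% and 0.198% (adjusted exact p = 0.00231) and 0.551% and 0.220% (adjusted exact p = 0.00107). Each had a ratio to flanks of 2.5. The homeodomain word TAATTA was scarcer at summits than in flanks, 6.32% and 8.04% (adjusted exact p = 3.29e-05). The E-box CANNTG, 42.7% and 40.7%, passed narrowly (adjusted exact p = 0.0142) and lost the call without replicate 3, where the ratio was 1.04 (adjusted exact p = 0.0584), and under 6 other settings. With a 25 bp window the GAGA word, at a ratio of 1.27 (adjusted exact p = 0.287), and the M1BP word, at 2.2 (adjusted exact p = 0.128), lost the call too. With flanks 1000 bp above the summit the DRE word, at 1.73, and the homeodomain word, at 0.891, lost it (adjusted exact p = 0.0808 for each).

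Against the reproducible peaks, promoter words were among the most depleted. The DRE word stood in 0.495% of weaker regions and 1.70% of reproducible peaks (adjusted exact p = 5.65e-15), and the M1BP word in 0.551% and 1.52% (adjusted exact p = 1.86e-10). Runs of 8 A stood in 6.76% and 5.09% (adjusted exact p = 4.97e-06), the STAT word TTCNNNGAA in 2.61% and 1.96% (adjusted exact p = 0.00816) and the nuclear receptor half-site AGGTCA in 2.07% and 1.59% (adjusted exact p = 0.0288), all higher in weaker regions. The STAT word and the half-site lost the call with 1 summit per 1000 bp (adjusted exact p = 0.0868 and 0.197) and with a 25 bp window (adjusted exact p = 0.0796 and 0.595), and the half-site also without second summits (adjusted exact p = 0.215). When only the weakest quintile of reproducible peaks was compared, the forkhead word, its strict form and the DRE word passed, and all 3 were lower in weaker regions. The AP-1, Zelda, grainyhead, FTZ-F1 and TATA words passed neither comparison.

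Weaker regions lay somewhat nearer to reproducible peaks than the other outside regions did. Neither set shares a base with a reproducible peak, and no share over random positions was computed. The nearest reproducible summit was a median of 2388.5 bp away, against 2980 bp for the other outside regions, and 71.9% of weaker regions and 66.3% of the other outside regions had one within 5000 bp (odds ratio 1.3005, Fisher's exact p = 9.87e-16). Within 2000 bp the shares were 43.2% and 35.8%. The gap to the nearest reproducible interval was under 1000 bp for 1996 weaker regions (22.0%). Keeping only the strongest of each run of weaker summits closer than 1000 bp left 6144 (67.7%).

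A weaker region lay within 1000 bp of a TSS of 1966 of 13945 protein-coding genes (14.1%), and a reproducible peak of 4345 (31.2%). Both lay at 901 genes (6.46%), which are 45.8% of the genes with a weaker region and 20.7% of those with a reproducible peak. The other 1065 genes (7.64%) had a weaker region and no reproducible peak. They are 54.2% of the genes with a weaker region, the share to set beside such counts in the lists below. A summit between close genes counts for each of them, and the gene lists are described by counts beside these shares, without a test. Any TSS of a gene counts, so a gene with more start sites has more places to be counted. The shares over all genes are not matched to the lists for this. Since a weaker region cannot share a base with a reproducible peak, the weaker and reproducible shares of a list are not independent. Members without a reproducible peak that were not among the 3 strongest of their list, such as Atg13, rho and odd, were named after their values were seen.

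The genes with the strongest weaker regions at a TSS were a mixed group. Ugt36A1 had signals of 53.2, 67.2 and 38.9 in replicates 1, 2 and 3, at ranks 14363, 7979 and 9968, and no reproducible peak at its TSS. Signals of separately called lists are not on one scale, so the ranks are what compare, and only replicate 2 placed it inside its strongest 9531. CG4036 had ranks of 10576, 12019 and 7797, with a summit 2 bp from the TSS and the forkhead word. The uncharacterised CG11555 ranked 9975, 11016 and 15865. The G protein coupled receptor gene mthl10 ranked 7777, 14669 and 15258, and ImpL2, which encodes a secreted binding protein of insulin-like peptides and was first found as an ecdysone-induced gene, ranked 11910, 14325 and 9564. The ImpL2 summit lay 9 bp from a TSS and held no forkhead word. The others were mrj, l(1)G0469, hwt, CG10237 and Dh44-R2, a receptor of the diuretic hormone Dh44, and of the 10 genes mrj and Dh44-R2 also had a reproducible peak. The word stood at 6 of these 10 summits.

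Outside promoters, the strongest weaker regions in introns lay in mtd, lncRNA:CR46454 near salm, px, Roc2 and CG2841, with signals of 159.8 to 159.9, and only that near salm, a zinc finger gene of trachea and wing, held the word. Between genes they lay nearest to the Notch target gene E(spl)malpha-BFM, CG15172, the homeodomain gene mirr, the FGF ligand gene ths and Fie, and 3 of these 5 held the word. In coding sequence they were weaker, with signals of 158.7 at CG32425, 151.3 at CG11367 and CG11241, 136.1 at Mco1, 136.0 at rt and 126.9 at mtd and Tim17b1. In 3' UTRs they lay in BTBD9, sgg, the kinase of wingless signalling, unc79, CG15236 and lqfR, at 154.5 to 158.3. In the sgg region the ranks were 8812, 8686 and 12890 and the word was present.

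Lists differed in their share of genes with a weaker region, which was 14.1% over all genes. Of 29 ecdysone response genes 11 (37.9%) had one at a TSS and 19 (65.5%) had a reproducible peak, with 9 having both. Eip75B, the nuclear receptor gene E75, had a weaker region 173 bp from a TSS at ranks 10079, 8425 and 8450. It also had a reproducible peak at a TSS, and the nearest reproducible summit was 2162 bp from the weaker one. At Kr-h1, a juvenile hormone and ecdysone response gene, the weaker region ranked 9219, 24477 and 6169, so replicate 2 was far below the others. ImpL2 and ImpL1 had a weaker region and no reproducible peak, and the ImpL1 summit was nearer to CG14107, 581 bp away, than to ImpL1, 838 bp away.

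The trachea list had 6 of 14 genes with a weaker region (42.9%), and 6 with a reproducible peak. Of the 6, 4 had no reproducible peak at a TSS: kni, vvl, rho and serp. kni and vvl encode transcription factors of tracheal branching. The kni region ranked 9490, 19054 and 12504 with the forkhead word, and the vvl region ranked 11798, 12402 and 15893 without it. The summits at rho, the protease of Egfr ligand release, and serp, a chitin deacetylase, were weaker, with pooled signals of 65.5 and 75.6.

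Of 25 Notch and Egfr genes 9 (36.0%) had a weaker region, among them fng, the glycosyltransferase that modifies Notch, whose summit 17 bp from the TSS held the strict word and ranked 9519, 12159 and 13508. Egfr and neur, an E3 ligase for Notch ligands, had one as well as a reproducible peak. The neur summit was nearer to hyx, 102 bp away, than to neur, 609 bp away. Of 29 Dpp and wingless genes 9 (31.0%) had one, and 23 (79.3%) a reproducible peak. Of 30 insulin and TOR genes 6 (20%) had a weaker region. The genes dpp, shn and wg also had reproducible peaks within 1000 bp of a TSS, the strongest of signal 360.4, 1426.3 and 363.1. From their weaker summits the nearest reproducible summit was 3311, 714 and 800 bp away. Of the 9 Dpp and wingless genes with a weaker region, Med alone had no reproducible peak.

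Regulators of the gut, one of the tissues in which fkh acts, stood at 9 of 29 (31.0%), and 5 of these had no reproducible peak: byn, the hindgut T-box gene, odd, pdm2, Sox21a and N. The byn region, in an intron 962 bp from a TSS, held the word and ranked 10843, 13478 and 10546. The gene sob had its weaker region 293 bp from a reproducible summit. Of the salivary gland regulators 3 of 21 (14.3%) had a weaker region and 14 (66.7%) a reproducible peak. They were CrebA, the secretory regulator, at ranks 18821, 19224 and 13648, rib, whose summit held the strict word, and Doc1, the only one of the 3 without a reproducible peak. Of 12 glue genes Sgs8 and ng4 had a weaker region and no reproducible peak, and the Sgs8 summit was nearer to CG33500, 180 bp away, than to Sgs8, 937 bp away.

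Of 27 autophagy genes 6 (22.2%) had a weaker region and 14 a reproducible peak, and 5 of the 6 had no reproducible peak. ref(2)P, the p62 adaptor, had a weaker region 33 bp from its TSS at ranks 10941, 13313 and 9895. Atg14 had one at 39 bp at ranks 13304, 12468 and 8770. Vps15 had one at 61 bp at ranks 19523, 10000 and 7725, so replicate 1 was lowest at Vps15. Atg16 and Atg13 had one at 52 and 94 bp with pooled signals of 93.4 and 73.6. All 5 summits lay within 100 bp of a TSS, and none of the 5 held the forkhead word, which stood at 37.1% of all weaker promoters. In the cell death list, the initiator caspase gene Dronc had a weaker region 117 bp from its TSS, with no word, at rank 17799 in the pooled list. The strongest replicate regions overlapping it ranked 13237, 1678 and 2298, far higher in replicates 2 and 3 than in replicate 1. Whether these belong to the same summit was not tested.

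Growth and secretion genes were divided. Of 29 endocycle and growth genes 8 (27.6%) had a weaker region, and 7 of these also had a reproducible peak. The exception was Cdk1, with ranks of 29663, 4480 and 12144, whose summit lies between Cdk1 and mRpS7 and counts for both. The unfolded protein response list had 5 of 19 (26.3%), including crc, the fly's ATF4, 43 bp from a TSS at ranks 15200, 12451 and 16113. Secretory machinery had 2 of 39 (5.13%), SrpRbeta and Sar1, and 20 of the 39 had a reproducible peak. SrpRbeta, part of the signal recognition particle receptor, had its summit 11 bp from the TSS with the strict word and ranked 15784, 8818 and 10138. Of 18 fat body genes 5 (27.8%) had one, and FASN1, a fatty acid synthase at ranks 11332, 9448 and 6666, and apolpp, a lipoprotein, had no reproducible peak.

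Housekeeping and sensory lists were near or under the share over all genes. The cytosolic ribosomal proteins had 11 of 85 (12.9%), while 54 (63.5%) had a reproducible peak. The mitochondrial ribosomal proteins had 9 of 73 (12.3%) and the V-ATPase subunits 5 of 29 (17.2%), and 4 of these 5 had no reproducible peak. The proteasome had 2 of 48 (4.17%), the chemoreceptors 5 of 179 (2.79%), digestive enzymes 1 of 47 (2.13%), cuticle proteins of the Cpr family 1 of 70 (1.43%) and the Fox family 0 of 17, of which 7 had a reproducible peak. Lists of other tissues were not empty. Of 22 muscle genes 4 (18.2%) had one, among them Mef2 and Tm1, and of 19 neuronal genes 4 (21.1%), among them elav. Both shares were above the 14.1% over all genes, on few genes. Among 15 haemocyte genes srp and ush (13.3%), both known in blood cell development, had one as well as a reproducible peak. Of 18 testis genes bol had one (5.56%). The cuticle list had 2 of 25 (8.0%), Edg91 and serp. Of the remaining lists, steroid synthesis had 3 of 17 (17.6%), Hox genes and cofactors 2 of 15 (13.3%), heat shock 1 of 19 (5.26%) and cell death 3 of 20 (15%).

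**Figure D5:**
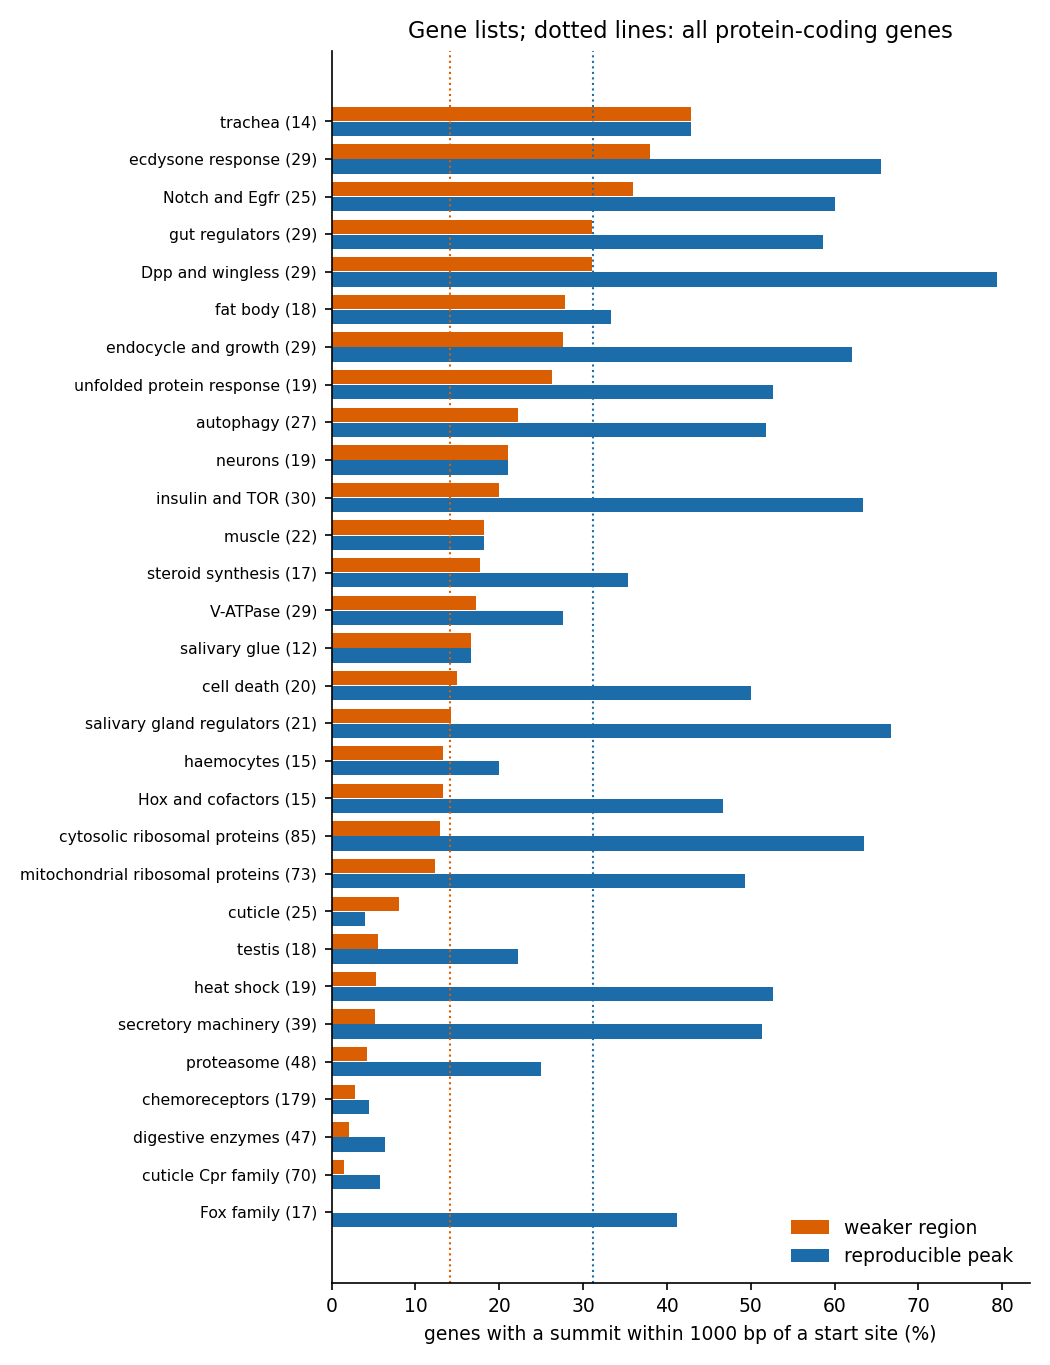
Share of genes in each list (percent, x axis) with a weaker region or a reproducible peak within 1000 bp of a start site. Numbers of genes stand in brackets, and dotted lines mark the shares over all protein-coding genes, 14.1% and 31.2%. For weaker regions the trachea, ecdysone response and Notch and Egfr lists lie highest, at 42.9%, 37.9% and 36.0%, and the Fox family, Cpr family, digestive enzyme and chemoreceptor lists lie lowest, at 0 to 2.79%.

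Counted over gene bodies and 1000 bp to either side, the number of weaker regions went with gene length, with a Spearman's rho of 0.356 across 13945 genes as a description. Of 13945 protein-coding genes 3193 (22.9%) held at least 1. kirre, a cell adhesion gene of 394149 bp, held 44 weaker regions and 10 reproducible peaks. Eip75B held 35 and 36, bun, a TSC22 family gene, 33 and 34, and Tet 29 and 13. heph, an RNA binding protein gene, held 27 and only 4 reproducible peaks. The homeodomain cofactor gene hth held 26 and 15, fz2, a wingless receptor gene, 23 and 17, and mam, the Notch coactivator gene, 23 and 20. Per length the order changed. Over all genes there were 0.732 weaker regions per 10 kb, while bun had 3.55, mam 3.23, Tet 3.05 and Eip75B 3.02, but kirre 1.11.

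At fkh itself, on chromosome 3R, the gene body held 2 weaker regions and 2 reproducible peaks. One weaker summit lay in the 3' UTR, with a pooled signal of 79.8, and one in coding sequence, with 70.8. They were 237 bp apart, shared their replicate regions at ranks 19831, 10708 and 19871, and neither held the forkhead word. Within 20000 bp of the gene there were 11 weaker regions, with pooled signals of 28.2 to 112.3, and 2 of the 11 held the word.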

How the data were processed

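The deposited files are region lists of fkh-GFP ChIP-seq in prepupae, with 1 list for each of 3 replicates, 1 pooled list and 1 reproducible list. Per the deposited file notes, each replicate was called against 1 shared control, the pooled list came from the 3 replicates together, and the reproducible list came from the irreproducible discovery rate (IDR), which compares how replicates rank their regions. The authors' signal column was deposited as a score per region. The authors' −log10 q-value per region was deposited beside it. The aligner, the caller, the IDR threshold, the control's source and the read depth were not given in the sources used here. Precision is therefore given only as counting error over regions. Signals of separately called lists are not on one scale.

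Region sets were formed by overlap of at least 1 bp in release 6 (dm6) coordinates, printed 1-based. Summits were classed with Ensembl release 115 genes, in the order promoter (within 500 bp of a start site), 5' UTR, coding sequence, 3' UTR, intron, other exon and intergenic. Sequence came from the NCBI RefSeq release 6 assembly. Matches on either strand were counted within 50 bp of each summit and in windows shifted by 500 bp. Shares were compared with two-sided Fisher's exact tests between sets and exact McNemar tests against flanks, with Benjamini-Hochberg adjustment within each family and a threshold of 0.05. Python 3.11.15, SciPy 1.17.1, pandas 2.3.3, NumPy 2.4.6 and matplotlib 3.10.9 were used, and the tests were tested on simulated data.

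The regions and the 30 gene lists were chosen with earlier results of these data known. Named genes were the 10 with the strongest weaker region at a start site, the 5 strongest regions of each of 4 classes, up to 3 per list and the 8 with the most regions. Signal bands, close pairs, replicate regions that touch reproducible peaks, summit agreement, chromosome shares and masked shares were chosen after seeing the data. With all 3 samples in 1 group, no test compares animals.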

Additional observations from a re-analysis of the deposited data

How the results depend on the processing

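Of 276 recomputed values of the main results 245 were scored as unchanged, and of 408 values for single words 361 were. For a tested value this means the same direction and the same side of the threshold. The 276 also include counts without a test, for which the score says little. The number of weaker regions, 9082, fell to 6563 with 50% of a region shared. Values are ratios of shares unless given as numbers, and the cause of a change was not tested. Against reproducible peaks, the 5' UTR ratio of 1.05 turned to 0.791 with a promoter window of 250 bp. The coding sequence ratio of 2.21 lost the test at 1.51 with 1 summit per 1000 bp, 1.72 against the weakest reproducible quintile, 1.13 for the weaker regions above their median signal and 1.54 without second summits. The 3' UTR ratio lost it at 1.22 against the weakest reproducible quintile, and other exons gained it at 1.54 with a promoter window of 1000 bp. Against the other outside regions, 5' UTRs gained it at 1.54 with the 250 bp window, and 3' UTRs lost it at 0.851 with 50% of a region shared and at 0.831 for regions at least 1000 bp from a reproducible interval. The forkhead ratio of 1.15 became 0.999, 0.876, 0.947, 1.06, 1.03 and 1.02 in the 6 signal bands from low to high.

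Besides the forkhead word, 6 words were higher at summits than in flanks, and 3 with a 25 bp window, which lost the GAGA, M1BP and E-box words. The number lower, 1, became 2 with 1 summit per 1000 bp, 3 with a 100 bp window, 3 with flanks 500 bp below and 0 with flanks 1000 bp above. It ran from 1 to 3 when replicates were left out, with 3 without replicate 2. Against reproducible peaks 3 words were higher and 7 lower, which became 1 and 4 with 1 summit per 1000 bp, 1 and 4 with a 25 bp window, 0 and 2 against the weakest reproducible quintile, and 4 lower without second summits. The CA repeat turned to 1.03 against that quintile. Genes numbered 4894 within 5000 bp and 3000 by nearest gene only, against 1966. Leaving out each replicate gave 10130 to 11479 weaker regions, forkhead ratios of 1.77 to 1.80 to flanks and 0.743 to 0.750 to reproducible peaks, and 2160 to 2315 genes. No paired analysis was possible because there is 1 group. Depth is unknown, and overlapping or neighbouring regions make p-values over regions too small.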
